A study of Mus musculus with 12 samples.

Results

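The 777 regions described here are the open-chromatin regions of the deposited table that start between positions 131600000 and 141600000 of mouse chromosome 4 (mm10) and whose overlapping or nearest protein-coding gene is not Kdm1a. Kdm1a encodes the histone demethylase LSD1, the gene targeted in the study, and lies inside that stretch from 136550533 to 136602787. The rule uses the position and the assigned gene of a region, and the table holds 94161 regions in all. Of the 777, 510 lie before Kdm1a, at lower coordinates, and 267 after it. They were assigned to 167 genes, among them Cnr2, E2f2, Id3, Runx3, Tcea3 and Rpl11, and had a median width of 376 bp (124 to 1669).

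Accessibility had been measured by ATAC-seq, in which the transposase Tn5 cuts and tags open DNA, in libraries of 10000 B cells, sorted without stimulation from spleens of female mice of strain C57BL/6J. The 4 groups, each of 3 libraries, were knockout marginal zone B cells (MZB), wild-type MZB, knockout follicular B cells (FoB) and wild-type FoB, where knockout and wild type are the labelled LSD1 status. MZB had been sorted as CD23- CD21hi CD1d+ cells and FoB as CD23+ CD21mid CD1d- cells, both within B220+ cells negative for Thy1.1, F4/80, CD11b, CD93 and GL7. The age of the mice, the targeted allele, any Cre line and the cells in which the deletion took place were not given in the sources used here. Nothing says that the libraries of a group came from separate animals either, so the p-values reflect only how far these libraries vary, which may be technical. The targeted allele lies within the stretch described here, and loss of LSD1 cannot be told apart from DNA inherited together with the allele in these groups.

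LSD1 removes methyl groups from histone H3 at promoters and enhancers and works in repressive complexes with CoREST and histone deacetylases. MZB sit at the border of the splenic white pulp and answer blood-borne antigens, whereas FoB recirculate through the follicles. The genes before Kdm1a include several with known roles in B cells. Cnr2 encodes cannabinoid receptor 2, which takes part in keeping MZB in the marginal zone. E2f2 encodes a transcription factor of the cell cycle, Id3 an inhibitor of E proteins, and Runx3 a Runt-domain transcription factor.

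The start sites of E2f2, Cnr2 and Srrm1, which encodes a splicing coactivator, carry the promoter-like regions whose accessibility was called different between knockout and wild-type cells, where called means an adjusted p under 0.05. Their sequences are shown to set the start sites that lay in a called region beside the other listed start site of the same gene. Each holds 250 bases before to 50 after the start site, 5′ to 3′ on the gene's strand, from RefSeq on GRCm38.p6 (mm10), where 148 of the 167 genes had a start site listed. E2f2 and Cnr2 lie on the plus strand and Srrm1 on the minus strand. Capitals mark matches on either strand to the motif letters CCGGAAG (ETS), GAGGAA (ETS of the PU.1 type), GCGGGAA (E2F), TGTGGT (RUNX), CACCTG (E-box) and CCAAT (the NF-Y box).
E2f2 downstream start: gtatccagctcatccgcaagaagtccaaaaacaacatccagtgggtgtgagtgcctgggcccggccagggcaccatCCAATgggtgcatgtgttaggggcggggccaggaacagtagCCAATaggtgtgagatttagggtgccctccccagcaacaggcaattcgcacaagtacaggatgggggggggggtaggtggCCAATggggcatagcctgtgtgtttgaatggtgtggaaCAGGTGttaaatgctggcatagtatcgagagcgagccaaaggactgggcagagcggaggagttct
E2f2 upstream start: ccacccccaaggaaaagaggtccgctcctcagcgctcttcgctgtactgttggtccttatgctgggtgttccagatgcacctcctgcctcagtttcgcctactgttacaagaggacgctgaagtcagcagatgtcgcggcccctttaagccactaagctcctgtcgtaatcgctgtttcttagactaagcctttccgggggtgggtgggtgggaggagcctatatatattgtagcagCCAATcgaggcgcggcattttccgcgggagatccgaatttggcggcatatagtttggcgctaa
Cnr2 downstream start: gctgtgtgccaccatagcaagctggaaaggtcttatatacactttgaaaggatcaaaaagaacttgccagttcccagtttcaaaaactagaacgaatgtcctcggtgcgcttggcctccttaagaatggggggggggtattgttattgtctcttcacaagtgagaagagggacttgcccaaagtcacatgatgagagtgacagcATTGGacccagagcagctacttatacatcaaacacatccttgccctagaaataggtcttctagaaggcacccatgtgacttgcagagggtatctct
Cnr2 upstream start: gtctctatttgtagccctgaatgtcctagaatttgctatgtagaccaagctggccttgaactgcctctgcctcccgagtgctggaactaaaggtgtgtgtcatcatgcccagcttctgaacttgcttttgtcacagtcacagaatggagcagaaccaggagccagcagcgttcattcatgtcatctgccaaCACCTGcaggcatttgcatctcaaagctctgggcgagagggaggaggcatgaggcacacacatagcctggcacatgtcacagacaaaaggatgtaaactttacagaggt
Srrm1 start: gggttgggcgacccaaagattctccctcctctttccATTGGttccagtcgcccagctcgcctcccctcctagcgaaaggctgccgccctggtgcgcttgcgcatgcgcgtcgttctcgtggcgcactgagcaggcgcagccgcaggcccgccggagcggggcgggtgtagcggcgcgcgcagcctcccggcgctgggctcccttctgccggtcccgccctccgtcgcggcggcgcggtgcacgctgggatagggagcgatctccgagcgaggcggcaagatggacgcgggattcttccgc

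The E2f2 downstream sequence, at chr4:136180532-136180831, lies wholly inside a called region and holds 3 CCAAT letters and 1 CAGGTG, the reverse complement of CACCTG. The E2f2 upstream sequence, at chr4:136172024-136172323, shares 293 bases with a region that was not called and holds 1 CCAAT. The Cnr2 downstream sequence, at chr4:135911430-135911729, also lies wholly inside a called region and holds 1 ATTGG, the reverse complement of CCAAT. The Cnr2 upstream sequence, at chr4:135894939-135895238, shares 198 bases with an uncalled region and holds 1 CACCTG. The Srrm1 sequence, at chr4:135353097-135353396, had a GC content of 71.7% and 40 CpG, against medians of 52.7% and 7 over 32851 RefSeq promoters of 300 bases. CCAAT was present in 37.4% of those promoters, CACCTG in 20.2%, GAGGAA in 28.3%, TGTGGT in 16.8%, CCGGAAG in 8.86% and GCGGGAA in 4.6%, each counted on both strands. The matches describe these letters only.

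Levels are given in rppm, the deposited unit, which is reads in a region scaled so that all listed regions of a library sum to 1000000. The table's values were whole multiples of 1 read, and the recovered reads ran from 3169966 to 10375328 per library. Wild-type FoB library 2 was the deepest. A count of 3 reads equals 0.289 rppm there and 0.946 rppm in the shallowest library, knockout MZB library 2. A single region lay at Kdm1a itself, over its start site (136601890 to 136603082), and it is not a member. It held 18.9, 29.7 and 26.6 rppm in knockout MZB against 24.0, 28.4 and 16.5 rppm in wild-type MZB, and 20.5, 20.6 and 20.6 rppm in knockout FoB against 24.9, 21.2 and 22.2 rppm in wild-type FoB. Neither difference passed the test (adjusted p = 0.773 in MZB, 0.866 in FoB). As the extent of the deletion was not given, this region does not check the labels. Regions at 6 marker genes of MZB summed to 1275 to 1314 rppm in knockout and 1297 to 1372 rppm in wild-type MZB, and to 908.6 to 929.1 rppm in knockout and 927.2 to 981.5 rppm in wild-type FoB. Regions at 3 of 4 marker genes of immature and transitional B cells (Vpreb1 had none) summed to 406 to 419.1 rppm in knockout MZB and 303.5 to 319 rppm in wild-type MZB, without overlap. In FoB the same sum was 512.4 to 566 rppm in knockout and 481.6 to 516.4 rppm in wild-type libraries. Regions at 5 myeloid marker genes summed to 258 to 281.1 rppm in knockout MZB against 232.6 to 243.2 rppm in wild-type MZB, and regions at 3 of 6 T cell marker genes (Cd3g, Cd4 and Cd8a had none) to 47.35 to 58.04 rppm against 45.34 to 51.57 rppm. Regions at 3 NK cell marker genes summed to 303.8 to 334.2 rppm in knockout MZB and 283.6 to 292.4 rppm in wild-type MZB, and regions at 3 of 4 erythroid marker genes (Hbb-b1 had none) to 65.62 to 73 rppm against 57.42 to 60.64 rppm. The myeloid, NK cell and erythroid sums thus did not overlap between knockout and wild-type MZB, whereas each overlapped between knockout and wild-type FoB. The NK cell sum was higher in FoB, at 356.3 to 384.3 rppm in knockout and 337 to 374.1 rppm in wild-type libraries. Sums at 5 B cell marker genes overlapped between knockout and wild-type MZB (609.2 to 691.2 against 590.2 to 642.9 rppm). Those at 5 follicular marker genes also overlapped there (600.1 to 653 against 602.7 to 608.6 rppm). Whether any of these sums reflects other cells in the libraries was not tested, nor was the part of such cells in the results below.

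Wild-type FoB library 2 stood between the groups at the regions that changed before Kdm1a. Among the 13 members called in MZB, 9 had FoB group means at least 2 rppm apart. There, wild-type FoB library 2 lay at a median of 51.7% of the way from the mean of the other wild-type FoB libraries to the knockout mean (range 30.0 to 79.2%). Wild-type FoB libraries 1 and 3, measured the same way, lay at medians of -28.4% and -29.7%. Their reference means include library 2, so these medians partly restate its position and are no separate contrast. At the 380 other regions of the genome called in MZB with such a gap, the median for wild-type FoB library 2 was 23.7% (quartiles -0.128 and 42.3%). Libraries 1 and 3 had medians of -19.7% and -10.5% there. At the 8 members called in FoB, wild-type MZB libraries 1, 2 and 3 lay at medians of -8.82%, 4.2% and -5.23% of the MZB gap. FoB differences without wild-type FoB library 2 are given beside those at Cnr2, E2f2, Tcea3 and Rpl11. That library was singled out by its position here, so differences without it are no further support.

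Of the 777 regions, 759 passed the filter on low values and 18 did not, with a highest single value of 2.97 rppm among those 18. In MZB, 7 tested members were higher and 6 lower in knockout than in wild-type libraries at an adjusted p under 0.05. That is 1.71% of the members, against 0.777% of all 89782 tested regions, where 0.502% were higher and 0.275% lower. In FoB, 2 were higher and 6 lower, which is 1.05% against 0.539% of all tested regions (0.32% higher and 0.219% lower). The calls fell on 15 regions at 10 genes. The values of the groups were fully apart at all 13 MZB calls and all 8 FoB calls, while groups that do not overlap made up 17.7% of all tested regions in MZB and 14.7% in FoB. As the calls were picked by these same values, their separation is no further support. Fold changes of at least 2 were reached at 10 of the MZB calls and 5 of the FoB calls.

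The calls were concentrated in the megabase before Kdm1a. Of the 15 called regions, 14 lay there, at 309.7 to 980.8 kb from the middle of the gene in MZB and at 309.7 to 690.6 kb in FoB. The remaining call, at the Srrm1 start site, lay 1223.2 kb before it, and 0 lay after Kdm1a. Among the 108 tested regions of that megabase, 12 were called in MZB, or 11.1% (95% exact binomial interval 5.87 to 18.6), and 8 in FoB, or 7.41% (3.25 to 14.1). These intervals treat the regions as independent, although neighbouring regions were read from the same libraries. Over the 626 members more than 1 Mb away, 1 was called in MZB and 0 in FoB, while 10.2% in MZB and 8.63% in FoB had an unadjusted p under 0.05, against 13.3% and 9.05% of all tested regions. With edgeR on the recovered reads, 5 members were higher and 6 lower in knockout MZB with the deposited scaling (0.774% of all tested regions called), and 6 and 6 with TMM scaling (0.812%). In FoB edgeR called 5 higher and 6 lower with either scaling (0.632% and 0.618%).

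**Figure D1:**
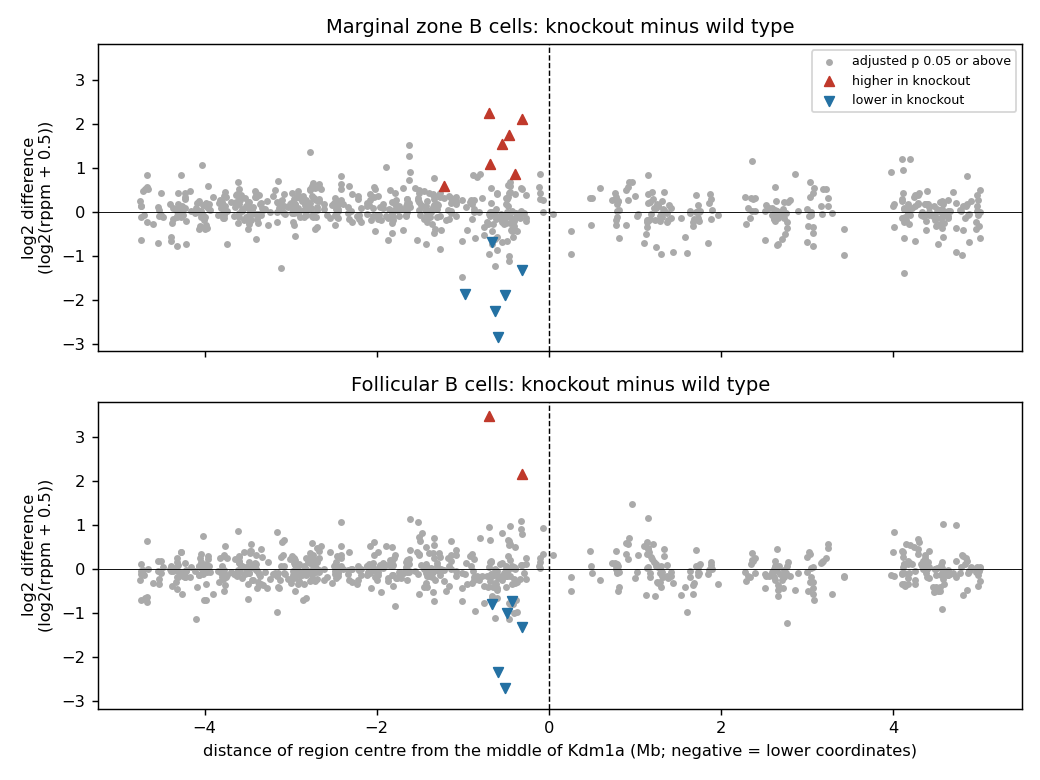
Log2 difference of each of the 759 tested members, knockout minus wild type on log2(rppm + 0.5), against the distance of the region's centre from the middle of Kdm1a in Mb, for MZB above and FoB below. Coloured triangles are the 13 MZB and 8 FoB calls, which, except for Srrm1 in MZB, lie within 1 Mb before Kdm1a.

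In steps of 0.25 Mb, a split chosen after seeing the data, the step from 0.75 to 0.5 Mb before Kdm1a held 37 tested regions, with 7 calls in MZB (18.9%) and 4 in FoB (10.8%). The next step, from 0.5 to 0.25 Mb, held 47, with 4 calls in each cell type (8.51%). The last 0.25 Mb before the gene held only 6 tested regions, all at Luzp1, and 0 were called. After Kdm1a, the first megabase held 25 tested regions and 0 calls in either cell type, although 5 regions in each had an unadjusted p under 0.05 and the median absolute log2 difference was 0.29 in MZB and 0.24 in FoB. Over all tested regions those medians were 0.22 and 0.19. In the megabase before Kdm1a they were 0.31 and 0.27, and 27.8% of its regions in MZB and 29.6% in FoB had an unadjusted p under 0.05. With 0 of 25 regions called, the 95% exact binomial interval after Kdm1a reaches 13.7%, above the shares found before it. That interval also treats the regions as independent. A stretch 3 to 4 Mb after Kdm1a, with 22 tested regions and 0 calls, had medians of 0.35 and 0.29. Its regions were low, with a median level of 2.19 rppm against 4.21 rppm over all tested regions.

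**Figure D2:**
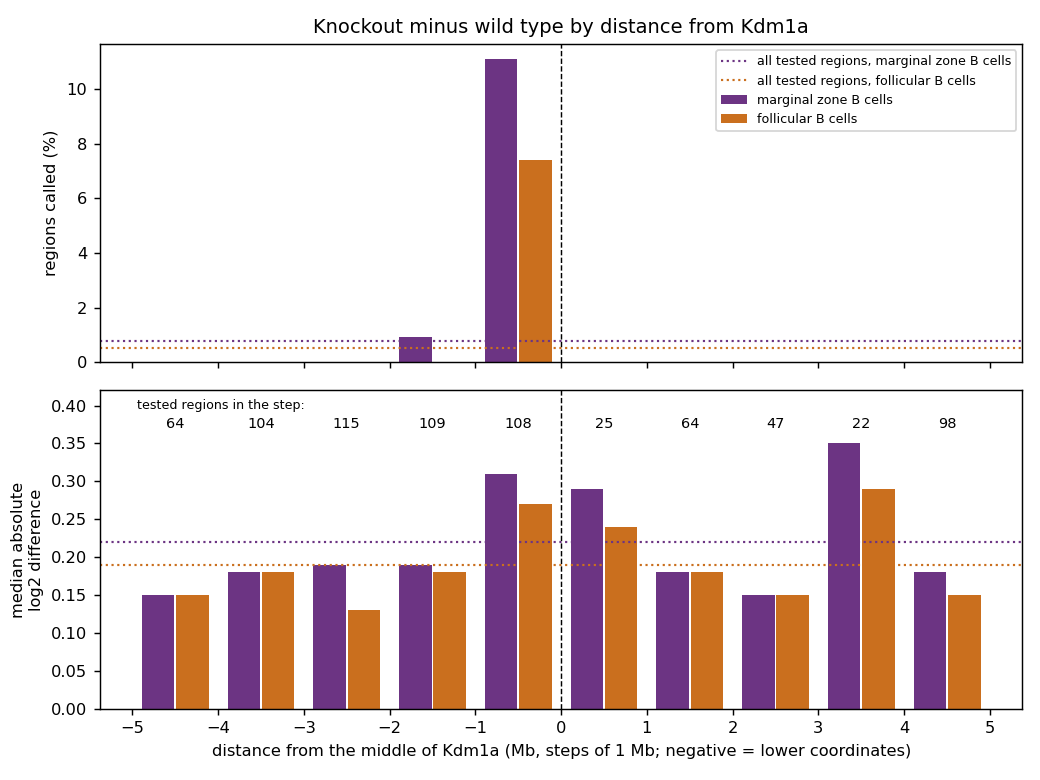
Percentage of tested members called (top) and median absolute log2 difference (bottom) in steps of 1 Mb from the middle of Kdm1a, for MZB (purple) and FoB (orange), with the values over all 89782 tested regions as dotted lines. Percentages reach 11.1 and 7.41 in the step before Kdm1a; the 3 tested regions beyond 5 Mb are not drawn.

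Fixed blocks of 1 Mb over the genome set such counts against other places, again a comparison added after seeing the data. They split the megabase before Kdm1a between the blocks that start at 135 and 136 Mb, which also hold regions outside it. The ranks are therefore not ranks of that megabase. Of 1536 blocks with at least 20 tested regions, the block of chromosome 4 that starts at 136 Mb ranked 16 by percentage called in MZB (6 of 65 regions, 9.23%) and 15 in FoB (5 of 65, 7.69%). The block that starts at 135 Mb ranked 34 in MZB (7 of 109, 6.42%) and 98 in FoB (3 of 109, 2.75%). Some fixed blocks elsewhere in the genome thus held larger shares of called regions than these blocks. On chromosome 4 outside the stretch, 20 of 4870 tested regions were called in MZB and 17 in FoB.

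Cnr2 had 11 tested regions, of which 2 were higher and 1 lower in knockout MZB, and 1 higher and 1 lower in knockout FoB. The region with the largest FoB difference among the members lies 8907 bp from the gene, 690.6 kb before Kdm1a (135885753 to 135886282). It held 20.1, 22.1 and 22.5 rppm in knockout MZB against 5.67, 3.99 and 3.11 rppm in wild-type MZB, and 16.3, 15.4 and 19.3 rppm in knockout FoB against 0.548, 6.55 and 0 rppm in wild-type FoB. All 6 knockout libraries stood above all 6 wild-type libraries, and wild-type FoB library 2 was the highest wild-type library. The log2 difference was 2.25 ± 0.43 (SE) in MZB (adjusted p = 0.00378) and 3.50 ± 0.43 in FoB (adjusted p = 7.02e-06), and 4.59 ± 0.27 in FoB without library 2. Robust variance shrinkage ended both calls (adjusted p = 0.28 in MZB, 0.16 in FoB), and without wild-type MZB library 3 the MZB adjusted p was 0.0569.

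Inside Cnr2, the regions did not move together. The downstream start site lies in a region (135911351 to 135912054) that was lower in both cell types, with 11.7, 11.4 and 11.2 rppm in knockout MZB against 18.6, 17.3 and 20.2 rppm in wild-type MZB, and 16.3, 12.8 and 13.0 rppm in knockout FoB against 26.0, 20.9 and 26.3 rppm in wild-type FoB. MZB had a log2 difference of -0.69 ± 0.15 (adjusted p = 0.0118) and FoB one of -0.78 ± 0.15 (adjusted p = 0.00329), or -0.88 ± 0.17 without wild-type FoB library 2. Leaving out wild-type MZB library 3 ended the MZB call (adjusted p = 0.0862). The upstream start site's region averaged 16.43 rppm in knockout MZB and 16.45 rppm in wild-type MZB, and it was not called in FoB either (log2 difference -0.27, adjusted p = 0.634). A region 1027 bp from that start site (135896216 to 135896517) held 10.0, 12 and 14.2 rppm in knockout MZB against 6.21, 5.05 and 4.98 rppm in wild-type MZB, a log2 difference of 1.08 ± 0.19 (adjusted p = 0.00155). In FoB its difference of 0.66 ± 0.19 did not pass (adjusted p = 0.127). The most accessible Cnr2 region (135900036 to 135900469) had log2 differences of -0.07 and 0.19 and was called in neither.

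Among the transcription factor genes, E2f2 was higher at its downstream start site. That region (136180407 to 136180885) held 32.4, 35.3 and 35.8 rppm in knockout MZB against 17.0, 18.6 and 20.8 rppm in wild-type MZB, a log2 difference of 0.86 ± 0.12 or 1.82-fold (adjusted p = 7.72e-05). In FoB it held 43.2, 39.3 and 37.9 rppm in knockout against 30.1, 32.4 and 23.2 rppm in wild-type libraries. The groups did not overlap in FoB, as was so at 14.7% of all tested regions. The difference of 0.50 ± 0.12 missed the threshold (adjusted p = 0.0515). It passed the threshold without wild-type FoB library 2 (0.59 ± 0.14, adjusted p = 0.0294) and in edgeR with all libraries (adjusted p = 0.0252). The upstream E2f2 start site's region had log2 differences of -0.21 in MZB and 0.05 in FoB, neither called. None of the other E2f2 regions, out of 11 tested, was called.

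Id3 had 15 tested regions. The one over its start site (136143568 to 136144198), its most accessible, averaged 26.79 ± 2.92 rppm in knockout and 26.59 ± 3.75 rppm in wild-type MZB, and 37.28 ± 2.86 rppm in knockout and 35.07 ± 0.487 rppm in wild-type FoB (SD, n = 3 each). A region 2243 bp from the gene (136147635 to 136148158) was lower in knockout FoB, at 10.6, 16.7 and 20.8 rppm against 27.9, 21.8 and 27.7 rppm in wild-type FoB (log2 difference -0.71 ± 0.17, adjusted p = 0.0442). A low region 26518 bp from the gene (136117144 to 136117304) was higher in knockout MZB, at 3.27, 1.89 and 2.66 rppm against 0.54, 0 and 0.933 rppm in wild-type MZB, which is 29 reads against 5 (log2 difference 1.75 ± 0.43, adjusted p = 0.0348). The FoB call stood in 2 of 6 fits that left out 1 library, where the adjusted p ranged up to 0.397, and the MZB call in 1 of 6, ranging up to 0.204.

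Runx3 had 22 tested regions, at 1394.6 kb or more before Kdm1a, and 0 were called in either cell type. Its most accessible region (135181845 to 135182240) held 19.8, 24.6 and 22.8 rppm in knockout MZB against 17.0, 17.3 and 14.6 rppm in wild-type MZB, and 16.1, 15.4 and 14.0 rppm in knockout FoB against 11, 12 and 11.9 rppm in wild-type FoB. The groups did not overlap in either cell type, as was so at 17.7% of all tested regions in MZB and 14.7% in FoB. The log2 differences of 0.44 ± 0.14 and 0.37 ± 0.14 missed the threshold (adjusted p = 0.14 in MZB, 0.37 in FoB). Grhl3, a grainyhead-like factor of epithelia, had 1 call, at a low region 22097 bp away and 980.8 kb before Kdm1a (135595729 to 135596020). It held 0.233, 0.946 and 0.591 rppm in knockout MZB against 5.13, 3.72 and 1.87 rppm in wild-type MZB, or 6 reads against 39 (log2 difference -1.87 ± 0.45, adjusted p = 0.0335). This call stood in 2 of 6 fits that left out 1 library, and FoB libraries of both kinds held at most 0.386 rppm there.

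The elongation, RNA and ribosome genes held the region closest to Kdm1a that was called. Tcea3, a transcription elongation factor of the TFIIS family, had 2 called regions of opposite direction, with 2651 bp between them. The nearer (136266611 to 136267210) lies 309.7 kb before Kdm1a and held 10.3, 10.4 and 8.57 rppm in knockout MZB against 23.2, 27.6 and 24.6 rppm in wild-type MZB, and 7.86, 10.1 and 8.64 rppm in knockout FoB against 28.5, 16.1 and 24.6 rppm in wild-type FoB. It was 2.5-fold lower in knockout MZB (adjusted p = 8.65e-06) and 2.46-fold lower in knockout FoB (adjusted p = 1.35e-05). The farther region (136263685 to 136263960) held 8.4, 10.1 and 8.27 rppm in knockout MZB against 1.08, 1.86 and 2.18 rppm in wild-type MZB, and 8.9, 8.24 and 8.64 rppm in knockout FoB against 1.1, 4.82 and 0.478 rppm in wild-type FoB. It was 4.36-fold higher in knockout MZB (adjusted p = 0.000671) and 4.49-fold higher in knockout FoB (adjusted p = 0.000516). Wild-type FoB library 2 was the library nearest to the knockout group at both. Without it the nearer region was 2.89-fold lower (adjusted p = 2.05e-07) and the farther 7.28-fold higher (adjusted p = 9.15e-08) in knockout FoB.

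Rpl11, a protein of the large ribosomal subunit, had 11 tested regions, 1 lower in knockout MZB and 2 lower in knockout FoB. The region 16648 bp away (136070041 to 136070410) held 1.4, 1.58 and 1.48 rppm in knockout MZB against 7.02, 6.65 and 6.84 rppm in wild-type MZB, and 0.621, 1.03 and 0.762 rppm in knockout FoB against 9.58, 5.01 and 10.3 rppm in wild-type FoB. MZB had a log2 difference of -1.89 ± 0.30 (adjusted p = 0.000281) and FoB one of -2.70 ± 0.30 (adjusted p = 6.35e-07), or -3.01 ± 0.34 without wild-type FoB library 2. A second region (136089828 to 136090326) held 6.21, 4.53 and 7.37 rppm in knockout FoB against 13.4, 9.83 and 13.8 rppm in wild-type FoB (log2 difference -0.99 ± 0.21, adjusted p = 0.0112, and -1.14 ± 0.24 without library 2). That call was lost without knockout FoB library 2 and without wild-type FoB library 1 or 3. The most accessible region assigned to Rpl11 (136081608 to 136082268) averaged 37.51 rppm in knockout and 37.38 rppm in wild-type FoB and was not called.

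Eloa, which encodes elongin A, had a region 9894 bp away (136031543 to 136031912) that held 8.63, 5.05 and 6.8 rppm in knockout MZB against 2.43, 2.39 and 1.24 rppm in wild-type MZB, a log2 difference of 1.55 ± 0.34 (adjusted p = 0.0185). The Srrm1 start site (135353057 to 135353911) held 20.8, 25.6 and 26.9 rppm in knockout MZB against 18.4, 16.5 and 13.7 rppm in wild-type MZB, a log2 difference of 0.58 ± 0.14 (adjusted p = 0.0338). In FoB the Eloa region was not called (adjusted p = 0.419), and the Srrm1 region had a log2 difference of -0.01. Leaving out 1 library ended the Eloa call in 3 of 6 fits and the Srrm1 call in 4 of 6.

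Of the metabolic and organelle genes, Pithd1, a gene of a PITH-domain protein, had a called region that was lower in knockout cells of both types. The region, inside the gene (135981573 to 135981824), held 0 reads in all 6 knockout libraries, against 4.05, 2.13 and 3.42 rppm (34 reads) in wild-type MZB and 3.01, 1.64 and 1.67 rppm (35 reads) in wild-type FoB. Set against a floor of 3 reads over the knockout group, the reads were 11.5-fold lower in knockout MZB and 8.72-fold lower in knockout FoB. The exact 95% intervals of the read ratios start at 8.86-fold in MZB and 6.73-fold in FoB. In limma, the region was 7.21-fold lower in knockout MZB (adjusted p = 7.72e-05) and 5.07-fold lower in knockout FoB (adjusted p = 0.00139). The region over the Pithd1 start site averaged 18.93 rppm in knockout and 20.8 rppm in wild-type MZB, and was not called in either cell type.

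DESeq2 on the recovered reads called 2 members higher and 2 lower in knockout MZB (0.189% of all tested regions called) and 0 higher and 3 lower in knockout FoB (0.174%). In MZB it kept the Cnr2 region 1027 bp from the start site, E2f2, the nearer Tcea3 region and the Rpl11 region 16648 bp away. In FoB it kept the Cnr2 downstream start site and the same Tcea3 and Rpl11 regions. It ended the calls at Srrm1 (adjusted p = 0.203), the Cnr2 downstream start site (0.207), Eloa (0.0726) and the farther Tcea3 region (0.0686) in MZB. In FoB it ended those at the second Rpl11 region (adjusted p = 0.0864), Id3 (0.225) and the farther Tcea3 region (0.278). It gave no adjusted p at the Cnr2 region 690.6 kb before Kdm1a, Pithd1, Grhl3 and the low Id3 region. Unlike the other regions without one, that Cnr2 region was not low, with 230 reads in knockout and 70 in wild-type FoB. Why it got no adjusted p was not tested. A pseudocount of 0.1 ended the MZB calls at that Cnr2 region (adjusted p = 0.141), Srrm1 (0.0535), Eloa (0.0547), Grhl3 (0.275) and the low Id3 region (0.083), and the FoB call at Id3 (0.0754).

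**Figure D3:**
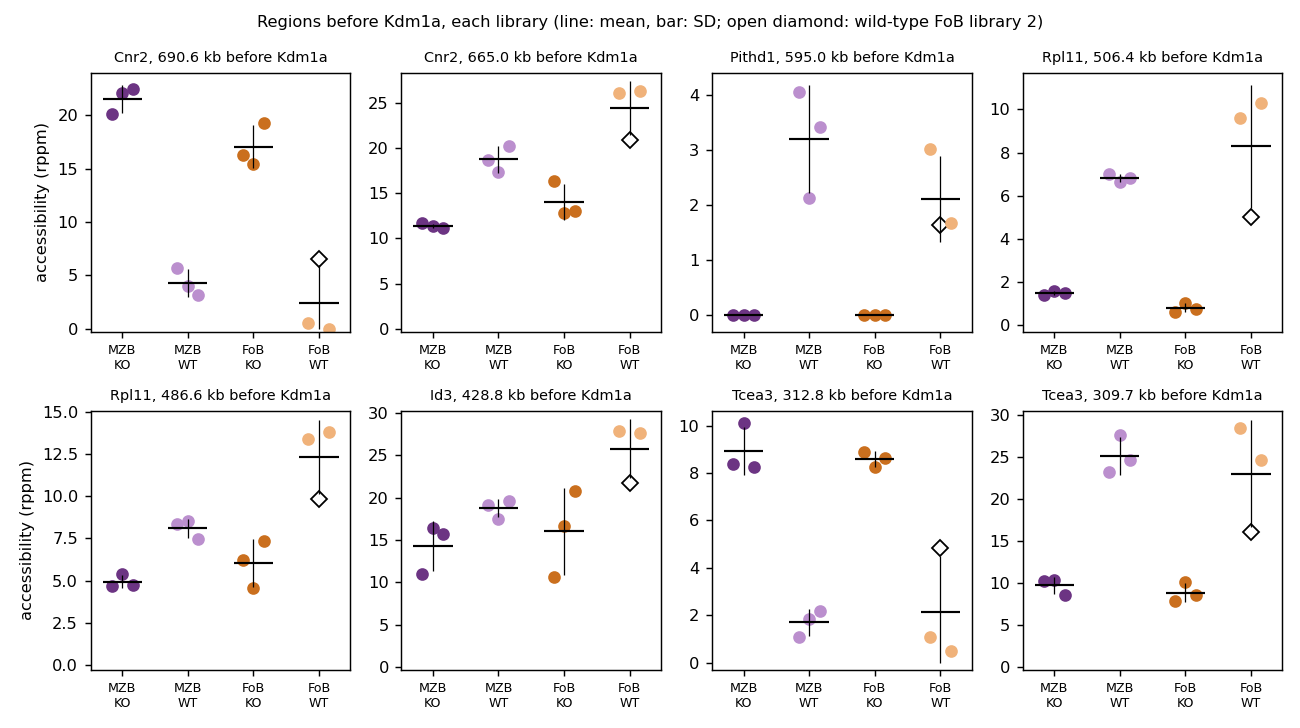
Accessibility in rppm of each library at the 8 regions called in FoB, with the mean (line) and SD (bar) of 3 libraries, knockout left of wild type in each cell type. The open diamond is wild-type FoB library 2, which at all 8 regions is the wild-type FoB library nearest to the knockout mean, at Pithd1 with 1.64 rppm beside 1.67 rppm in library 3.

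In the megabase before Kdm1a, 28 tested regions lay within 1000 bp of a start site, of which 2 were called in MZB and 1 in FoB. Over all 108 tested regions of that megabase, 12 were called in MZB and 8 in FoB. Over all tested regions of the genome the shares were 0.777% and 0.539%. The median absolute log2 difference of the 28 was 0.27 in MZB and 0.25 in FoB, against 0.31 and 0.27 over the megabase. The regions over the start sites of Zfp46 and Hnrnpr, which lie nearer to Kdm1a than the called Tcea3 region, averaged 38.99 and 21.41 rppm in knockout MZB, against 39.64 and 24.64 rppm in wild-type MZB. Over all members, 8 of the 13 MZB calls and 4 of the 8 FoB calls lay in a gene body, where 63.9% of the tested members lay.

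Genes of the stretch were also read in lists by role. Counts stand beside the 0.777% of all tested regions called in MZB and the 0.539% called in FoB. The lists were chosen with earlier results of these data known, so their shares do not test a role. The 20 transcription and chromatin factor genes had 126 tested regions, 2 higher and 1 lower in knockout MZB, or 2.38%, and 0 higher and 1 lower in knockout FoB, or 0.794%, with median log2 differences of 0.05 and -0.01. The 23 genes of immune receptors and signalling had 153, with 2 higher and 1 lower in MZB (1.96%) and 1 higher and 1 lower in FoB (1.31%, medians 0.04 and 0.03). The 20 genes of elongation, RNA processing and translation had 95 tested regions, with 3 higher and 2 lower in MZB (5.26%). In FoB 1 was higher and 3 lower (4.21%, medians 0.05 and -0.05). All calls of that list lay at Tcea3, Eloa, Rpl11 and Srrm1. The 25 metabolism and organelle genes had 130, with 2 lower in MZB (1.54%) and 1 lower in FoB (0.769%, medians -0.01 and -0.06). Over all tested regions the median was -0.02 in each cell type. Of 10 genes inside the stretch that mark macrophages, granulocytes or erythroid cells, 7 had regions, 0 of 51 were called in either cell type, and C1qa, C1qb and C1qc had none. The smallest p of that list was at Fgr, a Src-family kinase gene, in MZB (log2 difference 0.53 ± 0.19, adjusted p = 0.195) and at Alpl in FoB (0.59 ± 0.17, adjusted p = 0.142).

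Of the 13 MZB calls, the Srrm1 region had the opposite sign in FoB, with a difference near 0, and the low Grhl3 region held too few FoB reads for a direction (1 in knockout and 4 in wild-type libraries). The other 11 had the same sign in FoB, and all 8 FoB calls had the same sign in MZB. Of the 15 called regions, 6 were called in both, all in the same direction, which is 46.2% of the MZB calls and 75% of the FoB calls. The matching shares and signs for calls elsewhere in the genome are not given here, so these counts do not set the stretch apart. A further 7 were called in MZB alone and 2 in FoB alone, but the difference of the knockout effects between cell types was called at 0 of the 759 members. The smallest adjusted p of that test was 0.63, 44 members had an unadjusted p under 0.05, and edgeR and DESeq2 also called 0. Over all tested regions the test called 0.00111%, and 6.22% had an unadjusted p under 0.05; edgeR called 0.00223% and DESeq2 0.00111%. The knockout differences of the MZB and FoB libraries, which share no library (whether they share animals is not stated), correlated over the 108 regions of the megabase before Kdm1a with Pearson's r = 0.75 and Spearman's rho = 0.62. For the other 651 members r was 0.23 and rho 0.22, and over all tested regions 0.24 and 0.22; these describe correlations across regions, which are not independent replicates.

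**Figure D4:**
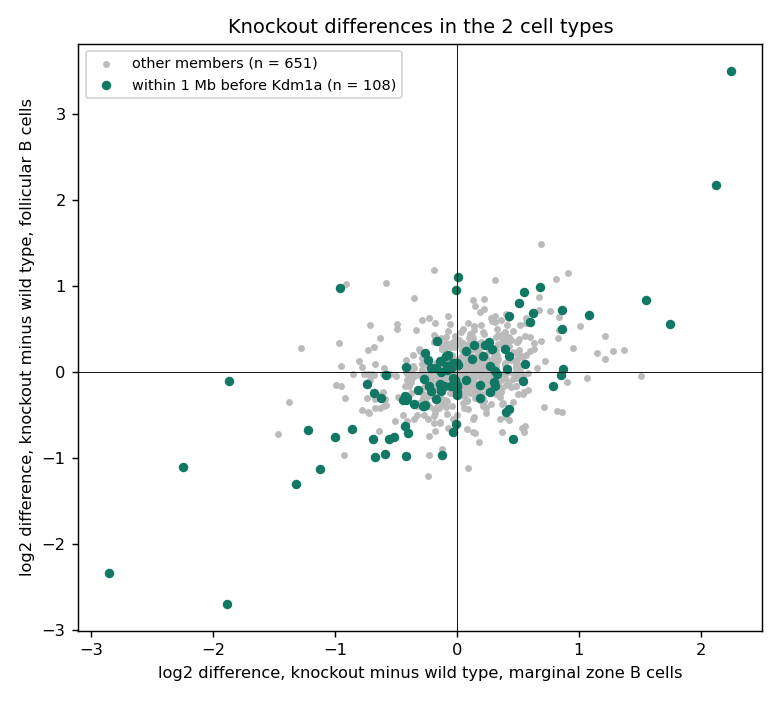
Log2 difference, knockout minus wild type on log2(rppm + 0.5), in FoB against that in MZB for the 108 tested members within 1 Mb before Kdm1a (green) and the other 651 (grey). Green points spread along the diagonal (r = 0.75), while grey points gather round 0 (r = 0.23).

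Without wild-type FoB library 2, FoB held 5 higher and 6 lower calls, while 0.558% of all tested regions were called. The calls gained were at E2f2, at Syf2 and at Rap1gap. The test of the difference between cell types then called 1 member, against 0.00334% of all tested regions. It was the Cnr2 region 690.6 kb before Kdm1a, whose knockout effect was smaller in MZB than in FoB (log2 difference -2.35, adjusted p = 0.0029). With all libraries the adjusted p of that difference was 0.799. The library was singled out by its position at called members before Kdm1a, so the calls gained without it are no further support.

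Between wild-type MZB and wild-type FoB, 138 members were higher and 98 lower in MZB. That is 31.1% of the tested members, against 35.7% of all tested regions (24.2% higher and 11.4% lower). The split depended on scaling, with 115 higher and 191 lower under TMM in edgeR (39.2% of all tested regions called), 75 and 167 under quantile normalisation (30.4%) and 82 and 115 in DESeq2 (27.9%). The median over all regions was 0.18 in log2 as deposited, 0.05 under TMM and -0.08 under quantile normalisation, and the differences below are as deposited. Of the 165 genes with a tested member, 70 had a region higher in MZB, 64 a lower one and 22 both.

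A block of regions with 1 direction, chosen after its values were seen, lay at Alpl, the tissue-nonspecific alkaline phosphatase gene, and at Rap1gap, which encodes an activator of the GTPase activity of Rap1, at 1099.6 to 1241.9 kb after Kdm1a. All 10 tested Alpl regions were higher in wild-type MZB, at mean levels of 2.39 to 23.5 rppm against 0.0321 to 4.8 rppm in wild-type FoB. The most accessible of them (137788397 to 137789153) held 19.4, 26.9 and 24.3 rppm in wild-type MZB against 4.38, 5.49 and 4.54 rppm in wild-type FoB (log2 difference 2.17 ± 0.17, adjusted p = 2.96e-12). Of 9 Rap1gap regions, 8 were higher in wild-type MZB, and the largest difference, 3.93 ± 0.35, was at a region (137713000 to 137713457) with 12.21 ± 1.64 rppm in wild-type MZB and 0.3841 ± 0.347 rppm in wild-type FoB (SD, n = 3 each). Under TMM, quantile normalisation and DESeq2, 9 of the 10 Alpl regions were called higher in each, and 6, 5 and 5 of the Rap1gap regions, with 0 lower. None of the 19 regions at these genes was called between knockout and wild type in MZB or in FoB with all libraries. Runx3 had 7 of 22 and Grhl3 5 of 6 regions higher in wild-type MZB, while Ahdc1 had 6 of 14 lower. Under the other scalings these counts ran from 4 to 8 for Runx3 (with 1 lower after quantile normalisation), 3 to 5 for Grhl3 and 6 to 9 for Ahdc1.

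**Figure D5:**
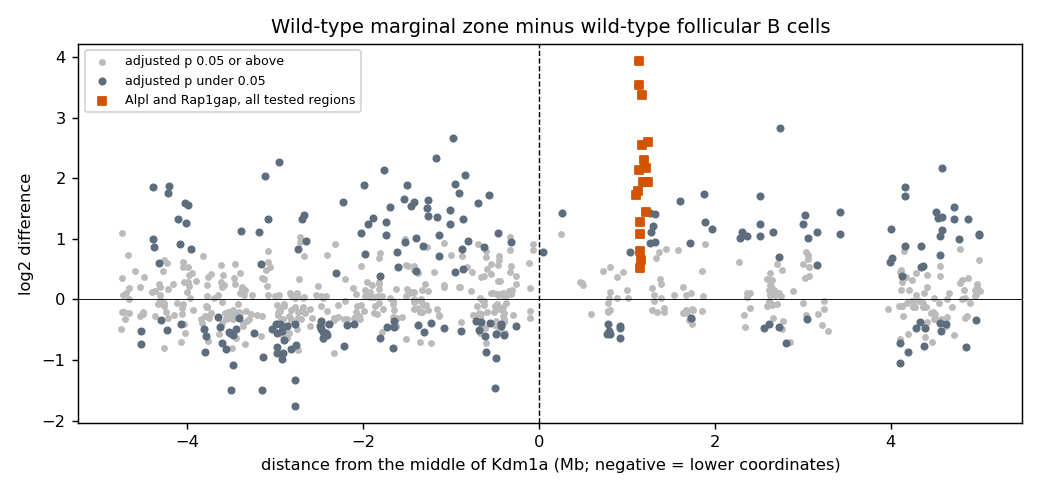
Log2 difference, wild-type MZB minus wild-type FoB on log2(rppm + 0.5), of each tested member against distance from the middle of Kdm1a in Mb. The 19 regions at Alpl and Rap1gap (squares) lie above 0, up to 3.93, while called regions elsewhere (dark) lie on both sides of 0.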

How the data were processed

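The authors deposited one table of RPM values, scaled to the reads in the listed regions (rppm), for 94161 regions and 12 libraries. Per the submitters' processing notes, the tools were Bowtie 1.1.1 and MACS2 and the build mm10. The merging of peaks, read filters, any Tn5 offset and the base from which coordinates count were not given in the sources used here. Positions appear as in the table. Whole reads were recovered from 100% of values within a tolerance of 0.01 of a read.

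Groups came from the sample titles and labels. limma 3.58.1 in R 4.3.3 (eBayes with trend) was fitted on log2(rppm + 0.5), 1 coefficient per group over 12 libraries, for the 89782 regions that reached 1 rppm in 3 or more libraries. Folds on this scale understate changes of low regions. Tests were two-sided, adjusted by Benjamini-Hochberg over all tested regions, with a threshold of 0.05; every adjusted p is limma's unless named. edgeR 4.0.16 and DESeq2 1.42.0 on the recovered reads were alternatives. The fit was tested on simulated data. Intervals cover counting error only, and those of shares treat regions as independent.

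Genes came from RefSeq (21900 protein-coding, GRCm38.p6), by overlap or nearest body; exons and introns were not used here. Named regions were the calls (1 is counted but not reported here), the most accessible region of 6 genes (Cnr2, E2f2, Id3, Runx3, Tcea3 and Rpl11) and the region of smallest p per list and cell type; others were added after seeing values. The members and lists were chosen with earlier results of these data known. No region sequence was used here.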

Additional observations from a re-analysis of the deposited data

How the results depend on the processing

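Direction and call were recomputed for 914 values of named regions, of which 846 kept both, 49 lost the call, 6 gained one and 13 changed sign. Members higher in knockout MZB numbered 2 in DESeq2, 3 with a pseudocount of 0.1, 13 after quantile normalisation and 4 to 9 when 1 library was left out. Those lower in knockout MZB numbered 2 in DESeq2 and 5 to 6 with a library left out. The percentage called in the megabase before Kdm1a was 3.70 in DESeq2 and 8.33 to 12 with a library left out in MZB, and 2.78 and 5.56 to 8.33 in FoB. Members higher in knockout FoB numbered 0 in DESeq2, 5 in edgeR with either scaling and 2 to 5 with a library left out, reaching 5 without wild-type library 2. Members lower in knockout FoB numbered 3 in DESeq2, 3 at a fold of at least 2 and 4 to 6 with a library left out. The difference of knockout effects had 0 to 1 lower call with a library left out. Between wild-type cell types, the higher count was 82 in DESeq2, 75 after quantile normalisation and 116 to 141 with a library left out, and the lower count 7 at a fold of at least 2, 191 under TMM, 167 after quantile normalisation and 67 to 102. The sign changes were at uncalled differences near 0. Id3 at its start site in MZB came to -0.00 in edgeR with deposited scaling, -0.02 after quantile normalisation and -0.07 to 0.12 with a library left out. Srrm1 in FoB came to 0.02 in DESeq2, 0.01 in edgeR with either scaling and -0.07 to 0.08 with a library left out. Grhl3 in FoB came to -0.27 to 0.17, and the most accessible Rpl11 region in FoB to -0.08 to 0.12, with a library left out. The causes were not tested.

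Replicate numbers showed no clear pairing of the libraries. Same-numbered knockout and wild-type libraries had correlations of -0.0934 to 0.134, and 1 of 6 knockout libraries correlated best with its own number. Same-numbered MZB and FoB libraries had -0.0338, 0.0677 and -0.0733 in knockout, and -0.023, 0.0182 and -0.0177 in wild type. Such correlations cannot show whether same-numbered libraries shared animals or handling. With the replicate block, 9 members were higher and 6 lower in knockout MZB, 3 and 6 in knockout FoB, and 140 and 97 in wild-type MZB against wild-type FoB. At 3 reads per library, levels under about 1 rppm are not resolved, which limits the calls at Pithd1, Grhl3 and the low Id3 region.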
